A study of Mus musculus with 11 samples.

Results

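The genes described here are 32 genes that mark oligodendrocyte precursor cells and the committed precursors that follow them, taken by gene symbol from a fixed list. All 32 were present among the 24411 gene symbols counted. They were followed by RNA sequencing in dissected corpus callosum and in neurospheres of adult mice. The libraries form 4 groups, each from mice aged 8 to 10 weeks. Callosum was sequenced from wild-type mice (n = 3) and from mice labelled Bmal1-/- (n = 2). Neurospheres came from the subventricular zone (SVZ) of wild-type (n = 3) and Bmal1-/- mice (n = 3), after 1 week of culture in 20 ng/ml EGF and 2 ug/ml heparin. No agent other than the culture medium is named for any group, and the labels do not say whether animals were pooled. Bmal1, counted as Arntl, is a core gene of the circadian clock, and its protein acts as a partner of CLOCK.

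Oligodendrocyte precursors are dividing glial cells, spread through grey and white matter, that give rise to the cells that make myelin. They carry the PDGF receptor alpha and the proteoglycan NG2, and transcription factors such as OLIG2 and NKX2-2 hold the lineage. On leaving the cell cycle they pass through a committed stage marked by GPR17, ENPP6 and BCAS1 before myelin genes are switched on. The SVZ, a germinal layer beside the lateral ventricle, holds stem cells that can also form oligodendrocytes, some of which migrate into the callosum that lies above it.

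The sum of gene counts was 17450270 to 19717848 in neurosphere libraries and 17513165 to 17836955 in callosum libraries. The 32 genes took 0.611 to 0.881% of it in neurospheres and 0.203 to 0.283% in callosum. Levels below are CPM (counts scaled to library size), adjusted by TMM over all 11 libraries, and 3 counts, the most that a count of 0 allows, equal 0.133 to 0.137 CPM in neurospheres and 0.199 to 0.210 CPM in callosum. Such floors cover counting error only. Whether the libraries within a group stem from different animals or cultures is not stated, so each p-value reflects only how far these libraries differ, which could be technical. Arntl, the targeted gene, did not check the genotype labels: its log2 fold change in Bmal1-/- libraries was 0.03 ± 0.14 (SE) in callosum and -0.01 ± 0.17 in neurospheres, and the labels do not give the deleted part. Nr1d2, a clock gene that BMAL1 drives, fell by 2.80 ± 0.25 (SE) on the log2 scale in callosum and by 4.11 ± 0.20 in neurospheres (edgeR adjusted p = 0.00117 and 0.000403). It is 1 of 6 clock genes checked. At an edgeR adjusted p under 0.05, 4 of the 6 were lower and 1 higher in callosum (0.909% of all genes passed). In neurospheres only Nr1d2 passed, with 5 of the 6 at an unadjusted p under 0.05 (3.02% of all genes). All genotype directions below are those of the labelled libraries.

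Markers of the labelled sources were checked first. The summed level of 20 myelin genes was 23836 to 36009 CPM in wild-type callosum and 2496 to 2644 CPM in wild-type neurospheres. Lists of 10 genes each for other cells differed as widely. Genes of mature neurons summed to 13703 to 18727 CPM in wild-type callosum against 278 to 331 CPM in neurospheres, and genes of stem and progenitor cells to 225 to 299 CPM against 4053 to 5217 CPM. Sums rest on the highest genes: Mbp alone stood at 16616.8 to 25116.5 CPM in wild-type callosum. Of the 10 stem and progenitor genes, edgeR called 7 lower in wild-type callosum (background 43.8%). It called 3 higher (background 42.0%), 2 of them by at least 4-fold. No gene of these 3 lists was at 0 in every library of a group. The callosum libraries thus held RNA of neurons and their surroundings along with that of glia. In such bulk RNA, fewer cells of a type and less RNA per cell cannot be told apart.

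**Figure D1:**
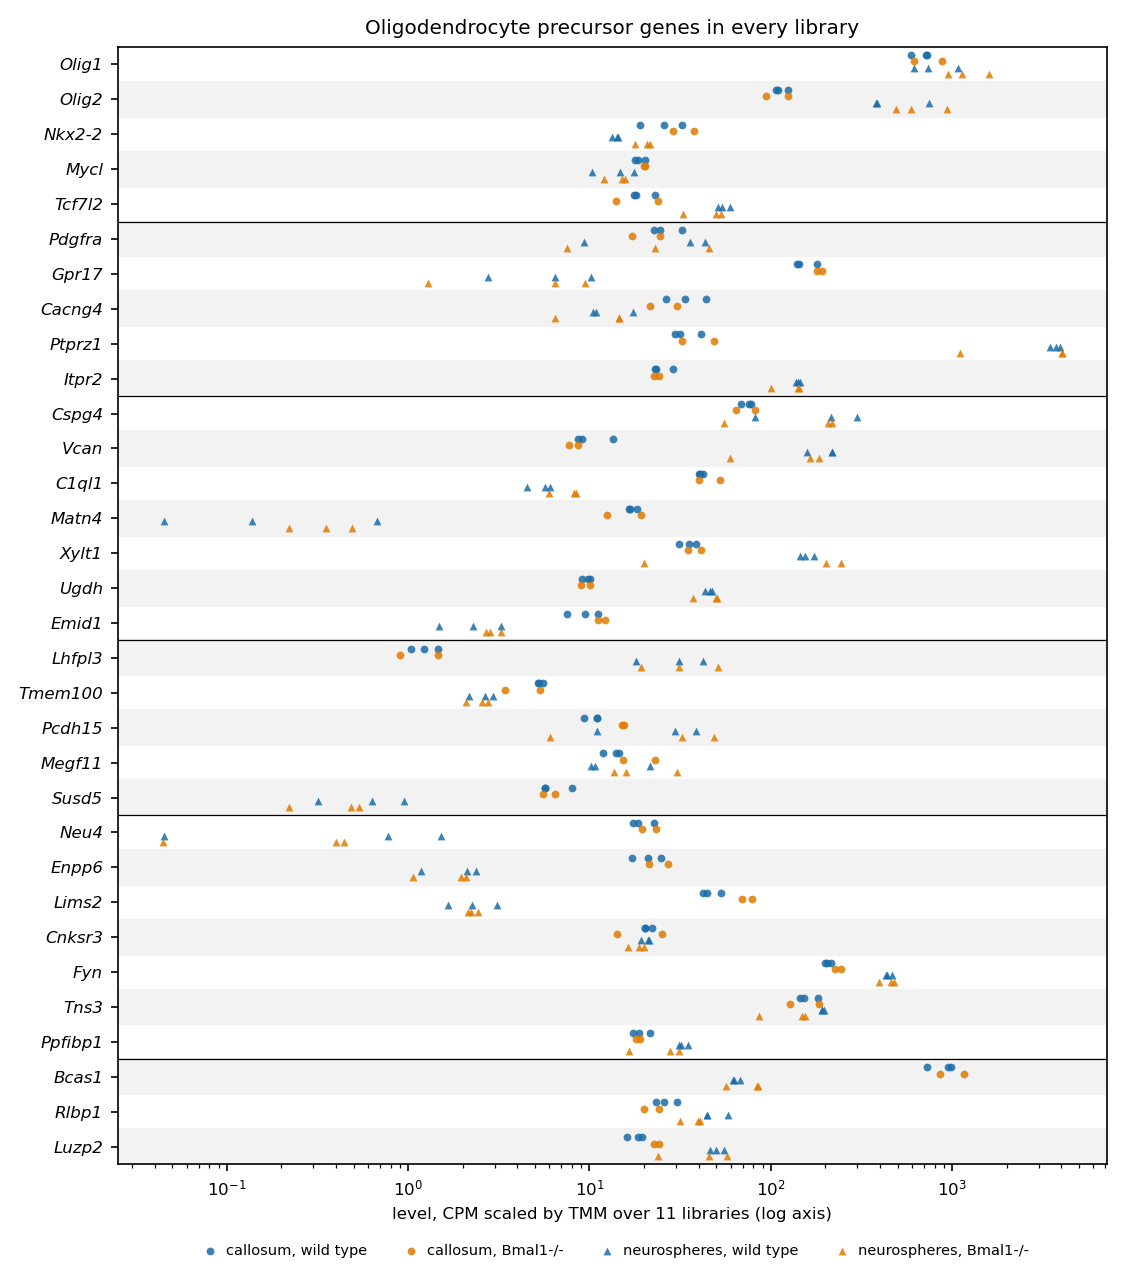
Level of each of the 32 genes in every library, as CPM scaled by TMM over 11 libraries on a log axis; circles are callosum, triangles neurospheres, blue wild type and orange Bmal1-/-, and horizontal lines part the genes by role. Ptprz1 and Vcan lie far to the right in neurospheres, Neu4, Matn4 and Gpr17 far to the left, while the genotypes lie close together in most genes.

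Among these genes, a few carried most of the counts, and different ones in each source. Levels between genes are compared here as CPM per kilobase of the longest annotated transcript. In wild-type callosum Olig1 stood highest at 315 ± 35.3 CPM per kb (SD, n = 3), followed by Bcas1 at 301 ± 48.6, whose libraries overlapped with those of Olig1. Fyn followed at 57.7 ± 2.04 and Olig2 at 44.7 ± 3.67, each apart from its neighbours, and Lhfpl3 was lowest at 0.398 ± 0.0683. In wild-type neurospheres Ptprz1 stood at 459.9 ± 27.5 CPM per kb (SD, n = 3), Olig1 at 375 ± 109, Olig2 at 199.9 ± 83.7 and Fyn at 125 ± 4.82, while Matn4 was lowest at 0.0693 ± 0.0825. Of 31 neighbouring pairs in the order of levels, the libraries were apart in 10 in wild-type callosum and 7 in wild-type neurospheres, so most ranks are not resolved. Ptprz1 alone held 23.5 to 58.0% of the counts of the 32 genes in neurospheres and 1.04 to 1.41% in callosum, and Bcas1 29.1 to 33.3% in callosum and 0.775 to 1.78% in neurospheres.

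The transcription factors were examined first. Olig1 and Olig2 are basic helix-loop-helix factors of the lineage that lie side by side on chromosome 16 (Olig2 at 91225550 to 91228677, Olig1 at 91269769 to 91271939, GRCm38). In wild-type callosum Olig1 stood at 594, 719.9 and 731 CPM, and in Bmal1-/- callosum at 616 and 877 CPM. In wild-type neurospheres it stood at 1076, 620.1 and 739 CPM, and in Bmal1-/- neurospheres at 1594, 1139 and 951 CPM. Olig1 thus overlapped between the sources in wild type, while replicate 1 was the highest neurosphere library of either genotype. Olig2 stood at 106, 124 and 109 CPM in wild-type callosum and 93.7 and 125 CPM in Bmal1-/- callosum. In neurospheres it stood at 750.2, 387 and 380.4 CPM (wild type) and 932, 595 and 488 CPM (Bmal1-/-), so that every neurosphere library was above every callosum library. In wild type the log2 fold change of callosum over neurospheres was -2.11 ± 0.26 (SE, edgeR adjusted p = 3.28e-05) for Olig2 and -0.21 ± 0.20 (adjusted p = 0.345) for Olig1, so that Olig2 fell and Olig1 did not pass the test. Counts of Olig2 per count of Olig1 were 0.150 to 0.179 in wild-type callosum and 0.515 to 0.697 in wild-type neurospheres.

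Nkx2-2, a homeodomain factor that promotes differentiation of precursors, lies on chromosome 2 (147176485 to 147195434, GRCm38). Its levels were 19.0, 32.3 and 25.7 CPM in wild-type callosum and 28.9 and 37.6 CPM in Bmal1-/- callosum. In neurospheres they were 14.2, 14.5 and 13.4 CPM (wild type) and 20.8, 21.6 and 17.9 CPM (Bmal1-/-), 2 groups that did not overlap. Tcf7l2, an effector of WNT signalling that peaks as precursors commit, stood at 17.6, 23.1 and 18.0 CPM in wild-type callosum, 14 and 23.8 CPM in Bmal1-/- callosum, 50.9, 53.5 and 59.3 CPM in wild-type neurospheres and 32.6, 53.5 and 49.6 CPM in Bmal1-/- neurospheres. Mycl, a member of the MYC family, ranged from 10.3 to 20.3 CPM over the wild-type libraries of both sources. Its source difference of 0.45 ± 0.19 (SE, edgeR adjusted p = 0.0505) missed the threshold and passed in 6 of 14 alternatives, RLE scaling (0.52, 0.0264), DESeq2 and the absence of wild-type neurosphere replicate 3 (0.62, 0.0131) among them. In wild type Nkx2-2 was higher in callosum (log2 fold change 0.92 ± 0.19, SE, edgeR adjusted p = 0.00114) and Tcf7l2 lower (-1.43 ± 0.14, adjusted p = 5.8e-06).

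CLOCK and BMAL1 bind the E-box CACGTG, and start sites of the genes were therefore searched for it where a window was at hand. Windows of 300 bases (250 before and 50 after a RefSeq start site, GRCm38.p6) were at hand for 23 of the 32 genes. The letters CACGTG, which read the same on both strands, were found in 2 of these 23 genes (8.70%), against 8.09% of 27025 genes with a window. The related CACGTT, searched on both strands and sharing no match with CACGTG, was found in 1 gene, Pcdh15 (4.35% of 23, against 5.44%). The genes with CACGTG were Nkx2-2 and Cnksr3, and the letters around the match, upstream of the start site, are shown on the strand of the gene because the genotype comparisons concern the factor that binds them. The first lies at chr2:147186530-147186615 and the second at chr10:7212238-7212312, both on the minus strand. The only window of Nkx2-2, 147186353 to 147186652, belongs to a start site inside the gene, which extends to 147195434. The outermost start of Nkx2-2 was thus not searched. Capitals mark the E-box, with 167 and 29 bases between it and the start site. The match is a description of these letters, not a measured binding site.
Nkx2-2: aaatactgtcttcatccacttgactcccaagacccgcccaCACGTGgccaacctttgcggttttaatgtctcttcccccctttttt
Cnksr3: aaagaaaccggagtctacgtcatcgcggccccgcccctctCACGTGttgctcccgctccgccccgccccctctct

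Receptors and channels of the list differed most widely between the sources. Pdgfra (chromosome 5, 75151322 to 75198206, GRCm38), the receptor through which PDGF-AA keeps precursors dividing, stood at 22.7, 32.2 and 24.3 CPM in wild-type callosum and 17.2 and 24.5 CPM in Bmal1-/- callosum. In neurospheres it stood at 9.38, 35.9 and 43.1 CPM (wild type) and 7.48, 22.9 and 45.7 CPM (Bmal1-/-). The neurosphere libraries of Pdgfra spanned the whole callosum range, and the wild-type source difference of -0.11 ± 0.44 on the log2 scale (SE, edgeR adjusted p = 0.822) did not pass. Without wild-type neurosphere replicate 1 it passed as lower in callosum (-0.54, adjusted p = 0.00767). Gpr17, a receptor of committed precursors that restrains their maturation, stood at 143, 179 and 140.3 CPM in wild-type callosum and 179.9 and 191 CPM in Bmal1-/- callosum. In neurospheres it reached only 2.75, 6.45 and 10.2 CPM (wild type) and 1.28, 6.45 and 9.47 CPM (Bmal1-/-). Gpr17 was 24.6-fold higher in wild-type callosum than in wild-type neurospheres (log2 4.62 ± 0.37, SE, edgeR adjusted p = 1.79e-06).

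Ptprz1, a receptor phosphatase with a chondroitin sulphate chain that progenitors and precursors share, went the other way. It stood at 31.4, 41.4 and 29.5 CPM in wild-type callosum and 32.5 and 48.9 CPM in Bmal1-/- callosum. In neurospheres it stood at 3479.9, 3922 and 3729.8 CPM (wild type) and 1108, 4037 and 4011 CPM (Bmal1-/-), with replicate 1 of Bmal1-/- far under the others yet above every callosum library. Ptprz1 was 105-fold lower in wild-type callosum (log2 -6.72 ± 0.18, SE, edgeR adjusted p = 3.65e-09). Itpr2, a calcium release channel of committed cells, was also lower in wild-type callosum (-2.45 ± 0.12), whereas Cacng4, an auxiliary subunit of AMPA receptors, was higher (1.47 ± 0.24).

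The matrix genes split by source. Cspg4 encodes the proteoglycan NG2, the classical precursor marker. It stood at 75.6, 78.1 and 68.6 CPM in wild-type callosum and 64.3 and 82.3 CPM in Bmal1-/- callosum, against 81.8, 214 and 299.7 CPM in wild-type and 54.9, 207 and 217 CPM in Bmal1-/- neurospheres. Vcan, which encodes the proteoglycan versican, stood at 8.60, 13.5 and 9.09 CPM in wild-type callosum and 7.68 and 8.70 CPM in Bmal1-/- callosum, against 158, 218 and 217 CPM in wild-type and 59.8, 165 and 185 CPM in Bmal1-/- neurospheres. Both proteoglycan genes were lower in wild-type callosum, Vcan 18.4-fold (log2 -4.20 ± 0.21, SE, edgeR adjusted p = 6.36e-08) and Cspg4 2.59-fold (-1.37 ± 0.37, adjusted p = 0.00615), though Cspg4 was not called with length offsets (-0.73, 0.0756). Xylt1, which starts glycosaminoglycan chains, was lower too (-2.12 ± 0.12), as was Ugdh, which supplies a sugar for those chains (-2.19 ± 0.11).

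The secreted C1ql1, Matn4 and Emid1 went the other way. C1ql1, a protein of the C1q family, stood at 40.1, 40.9 and 42.3 CPM in wild-type callosum and 40.1 and 52.5 CPM in Bmal1-/- callosum, against 4.51, 5.72 and 6.06 CPM in wild-type and 8.41, 6.01 and 8.18 CPM in Bmal1-/- neurospheres. Matn4, which encodes the matrix protein matrilin 4, stood at 16.4, 16.8 and 18.4 CPM in wild-type callosum and 12.5 and 19.3 CPM in Bmal1-/- callosum. In neurospheres Matn4 had 1, 3 and 15 counts in wild type and 8, 5 and 11 counts in Bmal1-/-, so that 1 library was under the floor of 3 counts and 1 at it. In wild-type callosum all 3 secreted proteins were higher, Matn4 by 5.92 ± 0.47 on the log2 scale (SE, edgeR adjusted p = 1.54e-06), C1ql1 by 2.96 ± 0.14 and Emid1 by 2.05 ± 0.29. Without wild-type neurosphere replicate 3 the value of Matn4 was 7.49.

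Of the membrane and adhesion genes, Lhfpl3, a tetraspan membrane protein typical of precursors, was near the bottom of the callosum range at 1.03, 1.46 and 1.23 CPM in wild type and 1.47 and 0.898 CPM in Bmal1-/-. Neurospheres held 17.9, 31.2 and 42.4 CPM of Lhfpl3 in wild type and 19.2, 31.2 and 51.1 CPM in Bmal1-/-. It was 23.7-fold lower in wild-type callosum (log2 -4.56 ± 0.36, SE, edgeR adjusted p = 1.41e-06), and 16.9% of its 50-base stretches occur also in a transcript of the opposite strand. Pcdh15, a protocadherin, was lower as well (-1.29 ± 0.38) but not called with length offsets (-0.62) or in a model of all libraries (-1.30), while the membrane proteins Susd5 (3.38 ± 0.35) and Tmem100 (1.10 ± 0.20) were higher. Megf11, an EGF-repeat protein, did not pass at -0.03 ± 0.28, but passed as higher without wild-type neurosphere replicate 1 (0.39, adjusted p = 0.0261).

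Enzymes, kinases and adaptors went in both directions, as did the remaining genes Bcas1, Rlbp1 and Luzp2. Neu4, a sialidase, stood at 18.6, 22.8 and 17.3 CPM in wild-type callosum and 19.4 and 23.1 CPM in Bmal1-/- callosum. In neurospheres it had 1, 17 and 34 counts in wild type and 1, 10 and 9 counts in Bmal1-/-, with replicate 1 of both genotypes under the floor of 3 counts. Enpp6, a choline phosphodiesterase of newly forming oligodendrocytes, stood at 17.2, 24.8 and 21.1 CPM in wild-type callosum and 21.2 and 27.1 CPM in Bmal1-/- callosum, against 1.17, 2.38 and 2.11 CPM in wild-type and 1.95, 2.08 and 1.07 CPM in Bmal1-/- neurospheres. In wild-type callosum Neu4 was higher by 4.68 ± 0.54 on the log2 scale (SE, edgeR adjusted p = 2.22e-05) and Enpp6 by 3.52 ± 0.26 (adjusted p = 1.02e-06). Without wild-type neurosphere replicate 3 the value of Neu4 was 5.59. Fyn, the kinase that signals from axon contact in this lineage, was lower in wild-type callosum (-1.07 ± 0.10), as was the scaffold Ppfibp1 (-0.72 ± 0.12), and the scaffold Cnksr3 did not pass (0.07 ± 0.12). The adhesion adaptor Lims2 was higher (4.37 ± 0.21), while Tns3 did not pass (-0.22 ± 0.11, adjusted p = 0.0887). In 3 of 14 alternatives Tns3 passed, as lower without wild-type callosum replicate 2 (-0.32, 0.0179) and without a scaling factor (-0.72, 0.000351), and as higher with length offsets (0.37, 0.0076). Bcas1, a gene of premyelinating oligodendrocytes, stood at 724, 992 and 947 CPM in wild-type callosum and 857 and 1156 CPM in Bmal1-/- callosum, against 61.5, 62.5 and 67.9 CPM in wild-type and 83.9, 85 and 56.9 CPM in Bmal1-/- neurospheres. It was 14.3-fold higher in wild-type callosum (log2 3.84 ± 0.15, SE, edgeR adjusted p = 1.69e-08). Across the 5 callosum libraries Bcas1 lay in the same order as the summed myelin genes, which stood at 23836, 36009 and 32220 CPM in wild type and 26924 and 36982 CPM in Bmal1-/-. Rlbp1, a retinoid-binding protein, and Luzp2, a leucine zipper protein, were lower (-0.84 ± 0.15 and -1.43 ± 0.12).

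**Figure D2:**
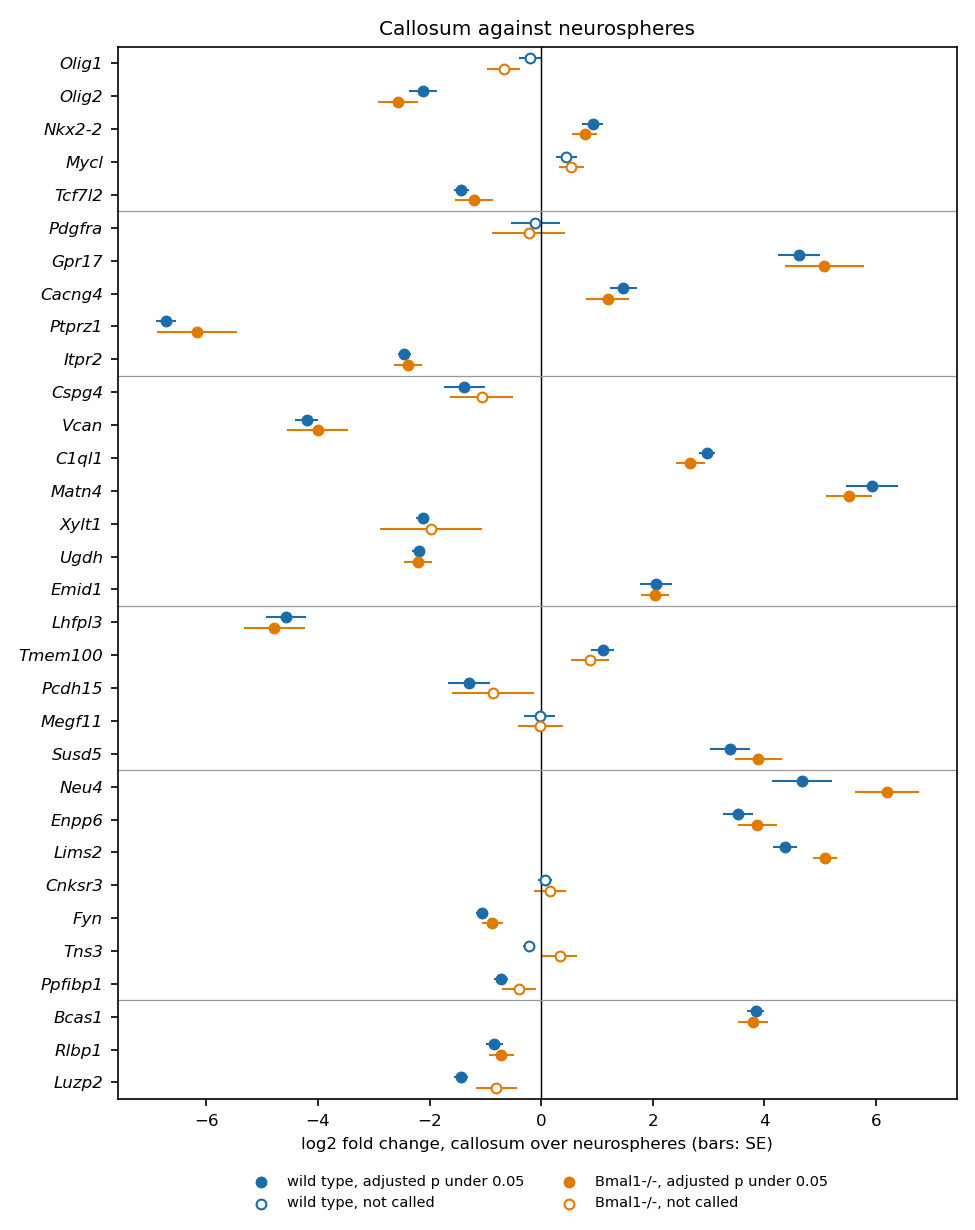
Log2 fold change of callosum over neurospheres for the 32 genes, with bars of 1 SE, in wild type (blue, 3 against 3 libraries) and Bmal1-/- (orange, 2 against 3); filled points passed an adjusted p under 0.05, and horizontal lines part the genes by role. Values run from -6.72 for Ptprz1 to 5.92 for Matn4 in wild type, and the genotypes fall close together.

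Counted over the list, the wild-type source comparison called 26 of 32 genes (edgeR adjusted p under 0.05), or 81.2%, where 85.8% of 14733 genes tested were called. Genes higher in callosum numbered 12 (37.5%, background 42.0%) and genes lower 14 (43.8%, background 43.8%). At least 4-fold differences were found in 9 genes higher in callosum (28.1%, background 20.3%) and 7 genes lower (21.9%, background 20.5%). The shares of called genes lie near the background, and the median log2 fold change of the list was -0.16, against -0.06 over all genes. The stages differed in their medians. The 9 genes assigned to the committed stage had a median of 3.52 but fell into 2 parts. Of these 9, 5 were at least 4-fold higher in callosum (Gpr17, Neu4, Enpp6, Bcas1 and Lims2). The other 4 had negative values, 3 of them called lower: Itpr2 (-2.45, at least 4-fold), Tcf7l2 (-1.43) and Fyn (-1.07). Tns3 (-0.22) was not called. The 17 genes assigned to precursors had a median of -0.11, with 4 at least 4-fold higher and 4 at least 4-fold lower. The stage of each gene was assigned with results of these data known, so the medians are a description only.

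Libraries of the Bmal1-/- groups, which share none with the wild-type comparison, gave the source difference again. Here 20 of 32 genes were called (62.5%, background 72.6% of 14883 genes). Of these, 11 were higher in callosum (34.4%, background 35.1%) and 9 lower (28.1%, background 37.5%), and 9 (28.1%, background 20.0%) and 6 (18.8%, background 21.3%) differed by at least 4-fold. All 20 had been called in the same direction in wild type (62.5% of 32 genes, against 71.5% of the genes tested in both). Gpr17 was 33.7-fold higher (log2 5.07 ± 0.70, SE, edgeR adjusted p = 0.000683), Neu4 73.1-fold higher (6.19 ± 0.57, adjusted p = 0.000118) and Ptprz1 72.1-fold lower (-6.17 ± 0.72, adjusted p = 0.000307). Genes called in wild type and not here were Cspg4 (-1.07 ± 0.56), Pcdh15 (-0.86 ± 0.74), Xylt1 (-1.97 ± 0.91), Luzp2 (-0.80 ± 0.37), Ppfibp1 (-0.39 ± 0.30) and Tmem100 (0.87 ± 0.34). Without neurosphere replicate 1 the Bmal1-/- comparison called 28 of 32 genes (87.5%, background 84.6%), these 6 included, with Pcdh15 at -1.36 and Xylt1 at -2.51 (adjusted p = 0.000347 and 1.23e-06). Without callosum replicate 1 it called 16 of 32 (background 55.2%). Any difference in library preparation between the sources could not be told apart from source. The share of unmapped reads was 7.77 to 8.46% in callosum and 13.7 to 22.6% in neurospheres, and the cause was not tested.

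The genotype comparison asked whether precursor genes differed in Bmal1-/- callosum. No gene of the list passed. Lims2, an adaptor of integrin adhesion, came nearest, at 44.7, 53.2 and 42.4 CPM in wild-type callosum and 78.6 and 69.7 CPM in Bmal1-/- callosum. Both Bmal1-/- libraries were above all 3 wild-type libraries, and in neurospheres Lims2 stood at 1.67, 2.24 and 3.10 CPM (wild type) and 2.21, 2.43 and 2.13 CPM (Bmal1-/-). The log2 fold change in callosum was 0.68 ± 0.13 (SE, edgeR adjusted p = 0.0545), a 1.60-fold difference that just missed the threshold. Lims2 was called by DESeq2 (adjusted p = 0.00118), with RLE scaling (0.0449), without a filter on low counts (0.0150) and without wild-type callosum replicate 2 (0.0395), and was not called in the other 9 of 13 alternatives, where its adjusted p reached 0.468. Lims2 and Gpr17 overlap on opposite strands, and counts that ignore strand cannot tell their shared reads apart: 5.27% of the 50-base stretches of Lims2 occur also in Gpr17. Gpr17, which did not pass (0.28 ± 0.13, adjusted p = 0.37), was also higher in both Bmal1-/- callosum libraries than in every wild-type one. Their summed level was 188, 233 and 183 CPM in wild-type callosum and 259 and 261 CPM in Bmal1-/- callosum.

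Next by p in callosum were Pcdh15 and Luzp2. Pcdh15 stood at 10.9, 11 and 9.37 CPM in wild type and 15.5 and 15.1 CPM in Bmal1-/-, a log2 difference of 0.57 ± 0.15 (SE, edgeR adjusted p = 0.152). Luzp2 stood at 19.5, 18.5 and 16.1 CPM in wild type and 22.7 and 24.1 CPM in Bmal1-/- (0.39 ± 0.13, adjusted p = 0.258). For both genes the groups did not overlap. In neurospheres Pcdh15 stood at 11, 29.5 and 38.7 CPM (wild type) and 6.07, 32.4 and 48.5 CPM (Bmal1-/-), and Luzp2 at 49.6, 54.9 and 46.0 CPM (wild type) and 24.0, 45.5 and 57.5 CPM (Bmal1-/-), where both genes overlapped between genotypes.

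Over the list in callosum, edgeR called 0 of 32 genes, where 0.909% of 14198 genes were called. DESeq2 called 1 (3.12%), Lims2, where it called 2.32% of all genes. Lims2, Pcdh15, Luzp2 and Megf11, all higher in Bmal1-/-, were the 4 genes with an unadjusted p under 0.05 (12.5%, background 13.9%). Groups did not overlap in 6 genes higher in Bmal1-/- (18.8%, background 13.7%), which were these 4 with Fyn and Gpr17, and in 0 genes lower (background 18.7%). The median log2 fold change was 0.05, against -0.01 over all genes, and the values ran from -0.40 (Cacng4) to 0.68. By role, the median was 0.10 for transcription factors, -0.08 for receptors and channels and 0.13 for enzymes, kinases and adaptors. Pdgfra stood at -0.33 ± 0.20 (SE, edgeR adjusted p = 0.482), Cspg4 at -0.00 ± 0.13 (0.994), Olig2 at -0.04 ± 0.14 (0.927) and Bcas1 at 0.19 ± 0.17 (0.642). Lists of other cells were compared alongside. The summed level of 10 astrocyte genes was 3046 to 3273 CPM in wild-type and 4497 to 4917 CPM in Bmal1-/- callosum. This difference lay in Gfap, the astrocyte filament gene (log2 2.19 ± 0.14, SE, edgeR adjusted p = 0.000194), and the other 9 genes summed to 2627 to 2916 CPM and 2637 to 2968 CPM. Of the 10 genes, 5 had positive and 5 negative values, with 1 called higher, Gfap, and 1 lower, Aldh1l1 (-0.55 ± 0.10, adjusted p = 0.0491). The summed level of 10 striatal neuron genes was 1339 to 3865 CPM in wild-type and 1184 to 1521 CPM in Bmal1-/- callosum, with all 10 at negative values and 0 called by edgeR (0 at an unadjusted p under 0.05). Mature neuron genes had 6 positive and 4 negative values, microglia genes 6 and 4, and endothelial genes 5 and 3. Ependymal and choroid plexus genes had 8 of 8 negative values, and pericyte and fibroblast genes 6 of 8, where 7224 of all 14198 genes had negative values. In each of these lists edgeR called 0. At an unadjusted p under 0.05 were 0 mature neuron, 3 microglia, 2 endothelial, 2 ependymal and choroid plexus and 2 pericyte and fibroblast genes. Stem and progenitor genes had 5 positive and 5 negative values. Of these 10, edgeR called 1, higher by at least 4-fold, and the highest value was 3.27. The part of other cells in the values above was not tested.

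**Figure D3:**
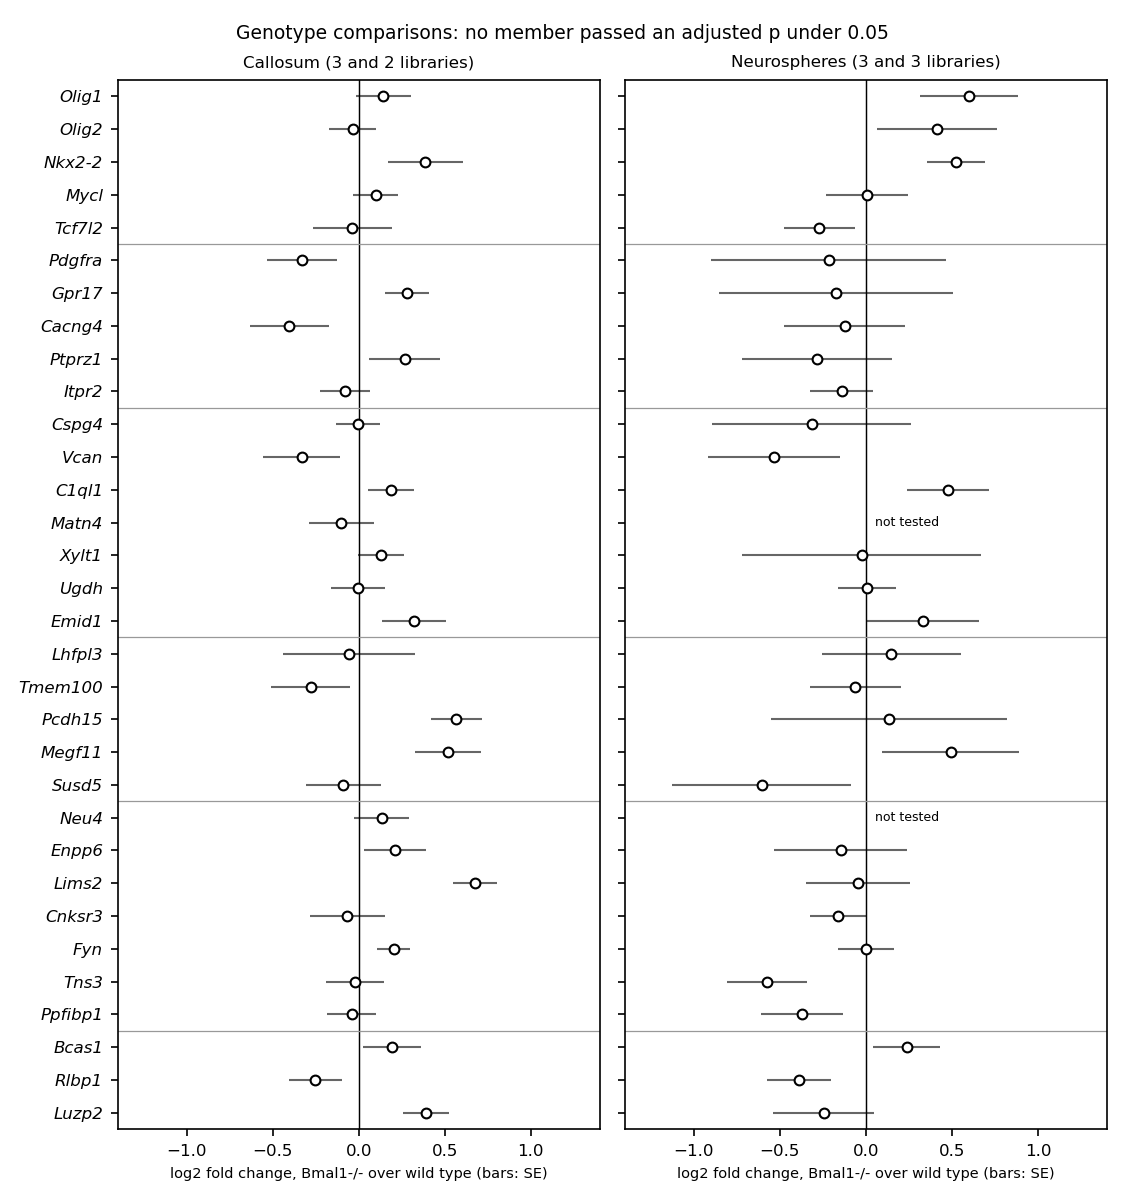
Log2 fold change of Bmal1-/- over wild type for the 32 genes in callosum (left) and neurospheres (right), with bars of 1 SE and horizontal lines between roles; open points did not pass an adjusted p under 0.05. Every point is open; Lims2 is farthest right in callosum at 0.68, and Neu4 and Matn4 were not tested in neurospheres.

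In neurospheres, the genotype comparison tested 30 of the 32 genes, since Neu4 and Matn4 fell under the filter on low counts. Nkx2-2, whose levels are given above, had the smallest p, at 0.52 ± 0.17 on the log2 scale (SE, edgeR adjusted p = 0.798). Every Bmal1-/- library of Nkx2-2 was above every wild-type library, a 1.44-fold difference that did not pass. Of its 50-base stretches, 11.2% occur also in Nkx2-2os on the opposite strand, and counts that ignore strand cannot tell such reads apart. Tns3, a tensin that links integrins to actin in differentiating oligodendrocytes, stood at 192, 190.4 and 196 CPM in wild-type and 85.7, 154 and 149 CPM in Bmal1-/- neurospheres, against 145, 183 and 153 CPM in wild-type and 128 and 186 CPM in Bmal1-/- callosum. Its neurosphere groups did not overlap either, and its log2 fold change of -0.58 ± 0.23 (adjusted p = 0.798) did not pass. Olig1 followed by p, at 0.60 ± 0.28 (adjusted p = 0.798), with overlapping groups.

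Over the list in neurospheres edgeR called 0 of 30 genes (background 0.00716% of 13968 genes, a single gene), and DESeq2 called 0 (background 0.243%). Nkx2-2 and Tns3 were the 2 genes with an unadjusted p under 0.05 (6.67%, background 3.02%). Groups did not overlap in 1 gene higher in Bmal1-/-, Nkx2-2 (3.33%, background 6.37%), and in 3 genes lower, Tns3, Ppfibp1 and Rlbp1 (10.0%, background 5.52%). Among transcription factors 4 of 5 had positive values, with a median of 0.41, and among receptors and channels 5 of 5 had negative ones, with a median of -0.17. Over all genes 6877 of 13968 values were positive. None of the transcription factors, receptors and channels passed, and each of the 5 receptor and channel values was smaller than its own SE. Pdgfra (-0.22 ± 0.68), Cspg4 (-0.31 ± 0.58), Gpr17 (-0.17 ± 0.68) and Xylt1 (-0.03 ± 0.70) had SEs far above the median of 0.24 over all genes tested, so a difference of that size in these genes was not detectable here.

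Neurosphere replicate 1 lay apart from the other libraries in many of the genes. Of the 30 tested, 13 were lowest in replicate 1 of both genotypes (43.3%, background 23.9%), among them Pdgfra, Cspg4, Gpr17, Pcdh15, Lhfpl3, Vcan, Ptprz1 and Xylt1. In 3 genes, Olig1, Olig2 and Megf11, replicate 1 was highest in both (10.0%, background 21.6%). The mean of replicates 2 and 3 exceeded replicate 1 of Pdgfra 4.21-fold in wild type and 4.58-fold in Bmal1-/-, and of Cspg4 3.14-fold and 3.86-fold. For Xylt1 the ratio was 1.13 in wild type and 11.1 in Bmal1-/-, and for Ptprz1 it was 1.10 and 3.63. Replicate 1 of Bmal1-/- neurospheres also stood apart technically, with 22.6% of reads unmapped and a rank correlation across genes of -0.63 between its deviation from the group and transcript length, against -0.02 in replicate 1 of wild type (14766 genes, which are not independent replicates). Taken from the mean of their own group, the deviations of Bmal1-/- replicates 2 and 3 gave 0.60 and 0.47. Deviations within a group depend on each other, so these values alone do not single out a library. Rank correlation of counts across genes was 0.95 between Bmal1-/- replicate 1 and either other library, and 0.994 between replicates 2 and 3. In wild type it was 0.986 and 0.983 for replicate 1, and 0.996 between replicates 2 and 3. The part of these differences in the gene values was not tested. Left without replicate 1 of both genotypes, a setting added after the data were seen, the comparison called 255 genes (1.83% of 13925), among them 3 of the list (9.38% of 32). Olig1 (0.62, edgeR adjusted p = 0.0211) and Olig2 (0.50, 0.0289) were then higher in Bmal1-/- neurospheres and Tns3 lower (-0.36, 0.0471), each with 2 libraries a group. With all 6 libraries Olig2 stood at 0.41 ± 0.35 (adjusted p = 0.798), and neither Olig1, Olig2 nor Tns3 was called in any of the other 14 alternatives.

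**Figure D4:**
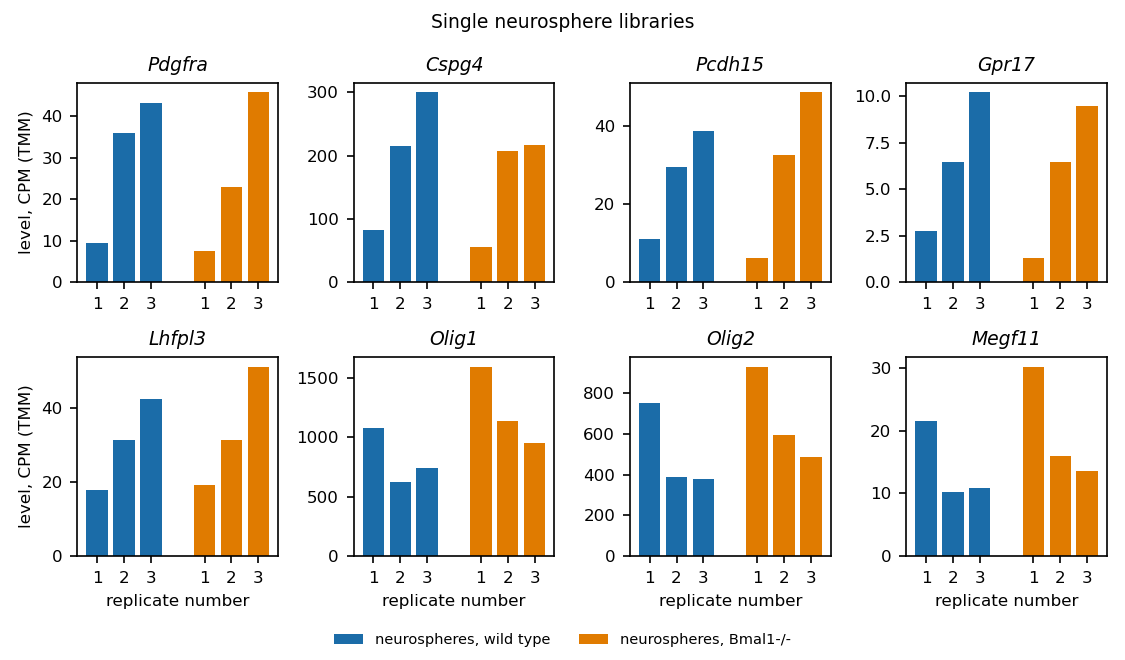
Level of 8 genes in each neurosphere library, as CPM scaled by TMM, for wild type (blue) and Bmal1-/- (orange) by replicate number; bars start at 0. Replicate 1 is the lowest bar of its genotype for Pdgfra, Cspg4, Pcdh15, Gpr17 and Lhfpl3 and the highest for Olig1, Olig2 and Megf11.

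Whether the effect of genotype differed between the sources was tested as an interaction over all 11 libraries. edgeR called 0 of 32 genes (background 0.0131% of 15322 genes), and DESeq2 called 0 (background 0.241%). A single gene, Lims2, had an unadjusted p under 0.05 (3.12%, background 4.28%), with a difference between the genotype effects of 0.71 ± 0.30 on the log2 scale (SE, edgeR adjusted p = 0.999). Luzp2 (0.62 ± 0.37) and Tns3 (0.54 ± 0.32) followed, both at an adjusted p of 0.999.

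Genes that act around the list were examined by fixed lists. Of the PDGF family, 4 of 5 genes were tested. Pdgfa, which encodes the chain that PDGF receptor alpha binds, was higher in wild-type callosum (77.5 ± 6.19 CPM, SD, n = 3) than in wild-type neurospheres (14.6 ± 2.85 CPM, n = 3), by 2.45 ± 0.16 on the log2 scale (SE, edgeR adjusted p = 3.16e-07). Pdgfb (6.60 ± 0.36) and Pdgfrb, a receptor of pericytes (4.73 ± 0.16), were higher too, and Pdgfc (0.23 ± 0.19) did not pass. The ligand gene Pdgfa thus differed between the sources where the receptor gene Pdgfra overlapped. By genotype, edgeR called 0 of the 4 in callosum (1 at an unadjusted p under 0.05, Pdgfrb at -0.28 ± 0.11) and 0 in neurospheres (0 unadjusted).

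Of 20 transcription factors and signalling regulators of the lineage, 19 were tested, and 9 were higher (47.4%, against 42.0% of all genes) and 9 lower (47.4%, against 43.8%) in wild-type callosum. Myrf, the factor that switches on myelin genes, was higher in callosum (698 ± 125 CPM, SD, n = 3, against 53.4 ± 7.79 CPM, n = 3, log2 3.75 ± 0.18, SE, edgeR adjusted p = 4.69e-08). Sirt2, a deacetylase abundant in myelin, was higher as well (1.74 ± 0.13), and Notch1, the receptor that holds progenitors undifferentiated, was lower (-1.79 ± 0.13). By genotype edgeR called 0 of the 19 in either source. In each, 2 had an unadjusted p under 0.05 (10.5%, against 13.9% of all genes in callosum and 3.02% in neurospheres). Among 20 myelin genes edgeR also called 0 by genotype in either source, with 1 (5.00%) at an unadjusted p under 0.05 in each. Of the same 20, 16 were higher (80.0%, against 42.0% of all genes) and 2 lower (10.0%, against 43.8%) in wild-type callosum than in wild-type neurospheres.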

How the data were processed

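Polyadenylated or rRNA-depleted RNA (the labels do not say which) was sequenced on a BGISEQ-500. Reads were aligned with STAR 2.7.1a to mm10, per the submitters' processing notes, and the authors deposited raw read counts per gene symbol. Which annotation was counted against is not given in any source used here. The strand-ignoring counts were used. Rows of unassigned reads (18.2 to 38.4% of reads) were left out. Multimapping reads are listed at 0. Opposite-strand genes overlap exons of 9 of the 32 genes. Groups followed the sample titles. Genotypes were compared within each source, sources within each genotype, and their interaction over 11 libraries, with the two-sided quasi-likelihood F test of edgeR 4.0.16 (R 4.3.3, robust fit, TMM, filterByExpr) and Benjamini-Hochberg adjustment over all genes tested. Genes with an adjusted p under 0.05 were called, and the SE is the log2 fold change over the square root of F. The fit was tested on simulated counts that held no length trend or other effect of single libraries. That test therefore does not cover a library that stands apart, such as replicate 1 of Bmal1-/- neurospheres. Replicates differed by more than sampling noise. Alternatives were RLE scaling, DESeq2 1.42.0, other filters, length offsets, a replicate block, a joint model, and libraries left out. Values in every library are given for 12 chosen markers, for the 3 smallest p of each genotype comparison and the interaction, and for the 3 largest wild-type source differences each way. The genes, lists and rules were chosen with earlier results of these data known. Transcript lengths are from GENCODE M21, and positions and start-site windows from RefSeq GRCm38.p6.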

Additional observations from a re-analysis of the deposited data

How the results depend on the processing

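In callosum, the number of listed genes called by genotype was 0 and became 1 (Lims2) with RLE scaling, DESeq2 and no filter on low counts. Leaving out a library gave 0 to 1. In neurospheres it was 0, except for 3 without replicate 1 of both groups, and the interaction called 0 in all 19 alternatives. The wild-type source comparison called 25 to 28 of 32 genes (26 to 28 with a library left out), and 23 of its 26 genes in every alternative; Cspg4 and Pcdh15 were lost with length offsets, Pcdh15 in a joint model and Nkx2-2 without a scaling factor (0.42, adjusted p = 0.0768). The Bmal1-/- one called 16 to 28, and 15 of its 20 genes in every alternative: the calls of Fyn, Tcf7l2, Cacng4, Nkx2-2 and Rlbp1 ended when single libraries were left out (highest adjusted p = 0.0664, 0.12, 0.19, 0.161 and 0.183, without Bmal1-/- callosum replicate 1 for Fyn, Tcf7l2 and Rlbp1 and replicate 2 for Cacng4 and Nkx2-2). Nkx2-2 and Cacng4 were also lost without a scaling factor (adjusted p = 0.561 and 0.176). Between wild-type sources, 3 uncalled genes passed with the opposite sign: Megf11 (0.39) without wild-type neurosphere replicate 1 (lowest -0.24 with another library left out), Cnksr3 (-0.44) without a scaling factor and Tns3 (0.37) with length offsets; the cause was not tested. Leaving out the scaling factor shifted the median of all genes to -0.57 in wild type and -0.68 in Bmal1-/-, with 11 listed genes higher and 17 lower in wild-type callosum and 9 and 14 in Bmal1-/-. Among all genes of the Bmal1-/- source comparison, 5231 higher and 5580 lower calls became 3843 and 7010.

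The labels do not say whether replicate numbers pair the samples, and the main fits did not pair them. Across genes, deviations of same-numbered neurosphere libraries correlated at 0.28, -0.00 and 0.28, and those of differently numbered ones at -0.37 to 0.25. Same-numbered libraries gave 0.04 and 0.00 in callosum and -0.02, 0.05 and -0.00 between wild-type sources. Between Bmal1-/- sources they gave 0.11 and 0.14. These values do not settle whether the numbers pair the neurosphere libraries. With the replicate block, the genes called were 0 in callosum, 0 in neurospheres, 27 and 19 between wild-type and Bmal1-/- sources, and 0 in the interaction. Between Bmal1-/- sources the block ended the calls of Nkx2-2 (adjusted p = 0.0744) and Rlbp1 (0.0825) and added Olig1 (-0.83, 0.0138), and between wild-type sources it added Mycl (0.48, 0.0365). Counts of all genes called by genotype ranged from 27 to 330 in callosum (129 as reported) and from 1 to 255 in neurospheres (1 as reported). With 2 Bmal1-/- callosum libraries and SEs of 0.10 to 0.38 on the log2 scale there, small differences could not be resolved.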
